A study of Mus musculus with 4 samples.

Results

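The caveolin and cavin family was examined here in brown adipose tissue (BAT) of fetal mice. It was taken as 9 genes, chosen by name from the 22298 genes of the count table: the caveolins Cav1, Cav2 and Cav3, the cavins Cavin1, Cavin2, Cavin3 and Cavin4, and the caveola-associated genes Ehd2 and Pacsin2. The set was proposed with the counts of these libraries in control and fructose already known, so the difference of each member between the groups is given as a description, without a p-value. BAT was collected at E18.5, shortly before birth, from C57BL/6 fetuses (C57BL/6J in the study's methods), all labelled male. Control dams drank tap water and fructose dams drank 20% (w/v) fructose water during gestation. Each group had 2 RNA-seq libraries, 4 in all, and no group carried a transgene or a deletion. How many fetuses or litters stand behind a library is not given in the sources used here, so the spread between libraries may be partly technical.

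Of control, library 1 held 19224529 gene counts and library 2 held 18542897. Of fructose, library 1 held 22461298 and library 2 held 23645147. At these depths, 3 counts, the limit that a count of 0 allows, equal 0.158, 0.166, 0.133 and 0.122 CPM (counts scaled to the TMM-normalized size of a library), which covers counting error only. Counts of the 2 control libraries differed beyond sampling noise (chi-square 13.1 per degree of freedom), as did those of the fructose libraries (8.45). The fructose libraries went against their label in 1 respect. The sum of 4 genes of the Y chromosome, Ddx3y, Eif2s3y, Uty and Kdm5d, came to 422 and 390 counts in the control libraries and to 0 in both fructose libraries. Leaving out both would leave no fructose library, so sex and fructose cannot be told apart in any value below. Ucp1, the uncoupling protein that defines brown fat, was abundant, with a mean of 11065 ± 1923 CPM in the control libraries against 10305 ± 989 CPM in the fructose libraries (SD, n = 2), a difference that did not pass the test (log2 fold change -0.10, adjusted p = 0.59, edgeR). It depended on the control library kept, at -0.27 (adjusted p = 0.0071, edgeR) without control library 1 and 0.087 without control library 2.

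Caveolae are small flask-shaped pits of the plasma membrane, abundant in adipocytes, endothelial cells and muscle cells. Caveolins insert into the inner leaflet of the membrane, and cavins assemble on them from the cytosol as a coat. Cav1, Cav2, Cavin1, Cavin2 and Cavin3 serve most tissues, whereas Cav3 and Cavin4 are the isoforms of striated muscle. Ehd2, an ATPase, sits at the neck of the pit, and Pacsin2, an F-BAR protein, bends membranes there. In fat cells caveolae carry proteins of lipid uptake and insulin signalling, and loss of Cav1 or Cavin1 causes a lack of fat tissue.

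All 9 members were detected in every library and passed the filter on low counts, which kept 12888 genes. Cav3 and Cavin4 passed it through their fructose libraries. In edgeR's quasi-likelihood fit, 5 members (Cav1, Cav2, Cav3, Cavin2 and Cavin4) were past an adjusted p of 0.05 in the direction of higher counts in fructose, where 15.5% of all tested genes were, and 0 members were past it in the other direction, where 10.7% were. Both fructose libraries lay above both control libraries for 6 members, against 33.4% of tested genes, and below them for Ehd2 alone, against 31.6%. Nothing is read from these counts, since the same contrast chose the members. The median log2 fold change, fructose over control, was 0.32 over the 9 members and 0.0025 over all tested genes.

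Per kilobase of exon, the members spanned a wide range of levels. Averaged over the 4 libraries, Cav1 stood at 217 CPM per kilobase, Cavin1 at 197 and Ehd2 at 143. A middle group followed, with Cavin2 at 22.5, Cavin3 at 18.4, Pacsin2 at 10.5 and Cav2 at 10.1. The muscle isoforms were the lowest, with Cav3 at 1.19 and Cavin4 at 0.490 CPM per kilobase. The order of neighbours depended on the group. Cav1 lay below Cavin1 in both control libraries and above it in both fructose libraries, and Cavin2 and Cavin3 likewise changed places, with 15.3 and 20.0 CPM per kilobase in control and 29.6 and 16.9 in fructose. Pacsin2 and Cav2 did so too, at 9.83 and 5.75 in control and 11.1 and 14.4 in fructose. Ehd2 was below Cav1 and Cavin1 in every library.

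**Figure D1:**
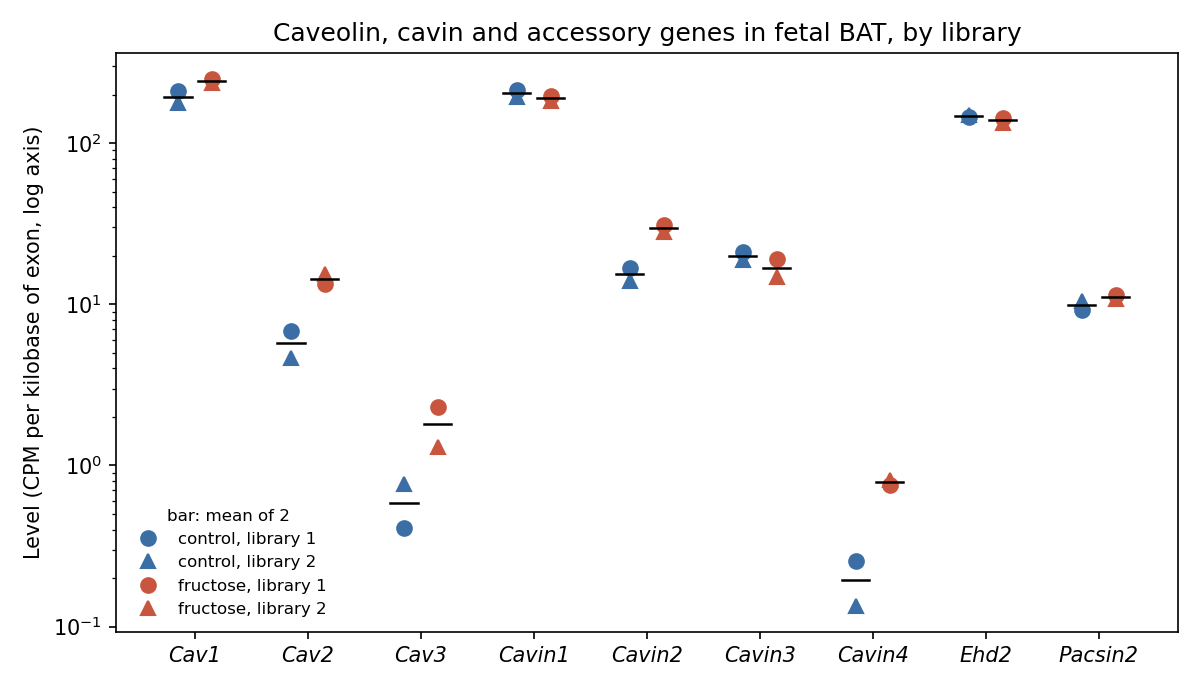
Level of each member in the 4 libraries, as CPM per kilobase of exon on a log axis; circles are library 1 and triangles library 2 of control (blue) and fructose (red), and bars are means of 2. Cav1, Cavin1 and Ehd2 sit above 100 in every library, and Cav3 and Cavin4 sit at the bottom with their fructose points above their control points.

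The 3 abundant members differed little between the groups. Cav1 (ENSMUSG00000007655, chr6:17306335-17341452, plus strand, GRCm38) encodes the caveolin that most tissues need to form caveolae. It had 725 and 606 CPM in control and 856 and 807 CPM in fructose. Both fructose libraries lay above both control libraries, by a margin smaller than the gap between the control libraries. The means were 666 ± 84.1 and 832 ± 34.9 CPM (SD, n = 2), a log2 fold change of 0.32 (SE 0.10). With the trend of counts on GC content removed from each library, this value turned to -0.020, so the direction for Cav1 depended on that choice. Cav1 was not past the threshold without control library 2, fructose library 1 or fructose library 2, with values between 0.20 and 0.45 when 1 library was left out.

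Cavin1 (ENSMUSG00000004044, chr11:100956733-100970887, minus strand) encodes the cavin without which caveolae do not form. Its libraries held 764 and 696 CPM in control and 707 and 659 CPM in fructose. The groups overlapped. The mean was 730 ± 48.3 CPM in control and 683 ± 33.9 CPM in fructose, with a log2 fold change of -0.096 (SE 0.089), which turned to 0.093 once trends on length and GC content were taken out. Ehd2 (ENSMUSG00000074364, chr7:15946958-15967567, minus strand) had 745 and 766 CPM in control and 733 and 681 CPM in fructose. It was the only member whose fructose libraries both lay below the control libraries, and the log2 fold change was small, at -0.096 (SE 0.085), and 0.021 with the GC content trend removed. Within a library, the ratio of Ehd2 to Cavin1 per kilobase stayed between 0.684 and 0.771, with the fructose libraries (0.727 and 0.724) inside the control range. The ratio of Cav1 to Cavin1 was 0.989 and 0.908 in control and 1.26 and 1.28 in fructose. With the GC content trend removed, however, the log2 fold change was -0.020 for Cav1 and 0.074 for Cavin1. The ratios here and below were chosen after the values were seen and carry no test.

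Cav2 and Cavin2 were the non-muscle members with the largest differences. Cav2 (ENSMUSG00000000058, chr6:17281185-17289115, plus strand) encodes a caveolin that joins Cav1 in hetero-oligomers. It ends 17219 bases before the start of Cav1, on the same strand. Its libraries held 22.9 and 15.5 CPM in control (433 and 280 counts) and 44.8 and 51.4 CPM in fructose (1013 and 1259 counts). The lower fructose library was far above the higher control library. The means of 19.2 ± 5.18 and 48.1 ± 4.67 CPM gave a log2 fold change of 1.32 (SE 0.15). The difference kept its direction in 15 of 15 alternative fits, between 0.68 (GC content trend taken out) and 1.63 (without control library 1). Cav2 has a low GC content, 37.5% over its longest annotated transcript, and only 1.41% of tested genes have a lower one.

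Cavin2 (ENSMUSG00000045954, chr1:51289126-51302960, plus strand), a cavin that helps to shape the membrane, had 51.1 and 42.6 CPM in control and 94.4 and 86.2 CPM in fructose. The groups were well apart, and the libraries of each lay close together. From 46.9 ± 5.97 to 90.3 ± 5.79 CPM, the log2 fold change was 0.95 (SE 0.10), with a range over 15 alternative fits of 0.71 to 1.08. Relative to its abundant partner per kilobase, Cav2 amounted to 3.25% and 2.64% of Cav1 in the control libraries and to 5.40% and 6.58% in the fructose libraries. Cavin2 amounted to 7.85% and 7.20% of Cavin1 in control and to 15.7% and 15.4% in fructose. Each minor subunit was thus about 2.0-fold higher relative to its partner (2.03-fold for Cav2, 2.06-fold for Cavin2). These ratios were not corrected for GC content. With that trend removed, the log2 fold change was 0.68 for Cav2 and -0.020 for Cav1, and 0.71 for Cavin2 and 0.074 for Cavin1.

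The start regions of the 4 members with the largest differences are shown so that they can be compared by eye. Of the 9 members, 8 had such windows in RefSeq (GRCm38.p6), each running from 250 bases before the start to 50 bases after it. Capitals mark matches to CANNTG, the E-box bound by myogenic and other basic helix-loop-helix factors. It equals its own reverse complement, so a match holds for both strands, and CAGCTG is a special case of it. Of 32851 windows of this length, 72.3% hold CANNTG and 16.3% hold CAGCTG. The windows are Cav2 at chr6:17280935-17281234, Cavin2 at chr1:51288876-51289175, Cav3 at chr6:112459255-112459554 and Cavin4 at chr4:48663264-48663563, all on the plus strand.
Cav2: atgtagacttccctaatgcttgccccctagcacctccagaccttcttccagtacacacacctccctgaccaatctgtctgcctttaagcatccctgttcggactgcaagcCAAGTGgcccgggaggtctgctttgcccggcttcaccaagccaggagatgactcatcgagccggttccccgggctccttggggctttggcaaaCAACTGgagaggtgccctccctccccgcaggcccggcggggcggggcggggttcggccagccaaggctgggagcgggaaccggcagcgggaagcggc
Cavin2: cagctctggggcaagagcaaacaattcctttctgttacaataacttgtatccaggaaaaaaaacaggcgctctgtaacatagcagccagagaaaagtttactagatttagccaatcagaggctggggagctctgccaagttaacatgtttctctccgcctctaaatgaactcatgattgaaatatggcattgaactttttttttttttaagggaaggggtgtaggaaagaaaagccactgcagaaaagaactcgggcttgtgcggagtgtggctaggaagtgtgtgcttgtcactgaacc
Cav3: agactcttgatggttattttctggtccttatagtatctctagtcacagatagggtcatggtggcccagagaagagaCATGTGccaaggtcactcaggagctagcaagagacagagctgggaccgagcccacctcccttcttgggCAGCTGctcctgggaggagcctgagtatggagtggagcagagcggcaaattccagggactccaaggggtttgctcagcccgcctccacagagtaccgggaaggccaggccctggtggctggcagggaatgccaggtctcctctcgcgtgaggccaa
Cavin4: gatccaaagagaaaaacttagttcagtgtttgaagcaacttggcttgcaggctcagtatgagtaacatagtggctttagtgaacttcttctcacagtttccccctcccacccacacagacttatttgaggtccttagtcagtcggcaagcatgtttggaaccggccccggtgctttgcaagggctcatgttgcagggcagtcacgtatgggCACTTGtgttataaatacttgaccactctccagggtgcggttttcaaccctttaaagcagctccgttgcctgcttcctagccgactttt
Cav3 has 2 matches, 174 and 106 bases before the start, the nearer of which reads CAGCTG, and Cavin4 has 1, 39 bases before it. Cav2 also has 2, 140 and 47 bases before the start. Cavin2 has no match. E-box letters were thus present in a muscle isoform and in a non-muscle member alike, as in most windows, and a match is a description of the letters, not evidence of binding.

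The muscle isoforms were rare, with 5 to 60 counts a library. Cav3 (ENSMUSG00000062694, chr6:112459505-112472872, plus strand), the caveolin of the muscle fibre membrane, had 9 and 16 counts in control and 60 and 37 counts in fructose, or 0.475, 0.887, 2.65 and 1.51 CPM. Every fructose library was above every control library, and the fructose libraries were far apart from each other. The means were 0.681 ± 0.292 and 2.08 ± 0.808 CPM, with a log2 fold change of 1.61 (SE 0.44) that dropped to 1.15 without fructose library 1. That fit and DESeq2 (1.60) did not place Cav3 past the threshold.

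Cavin4 (ENSMUSG00000028348, chr4:48663514-48673502, plus strand), the cavin of striated muscle, had 10 and 5 counts in control and 35 and 41 counts in fructose, or 0.528, 0.277, 1.55 and 1.67 CPM. The fructose libraries lay close together and above both control libraries. The log2 fold change of 1.98 (SE 0.45) lay between 1.60 and 2.51 with 1 library left out. It was the largest of the 9 members in the fit on 4 libraries, whereas Cav3 exceeded it without control library 2 (2.11 against 1.60) and without fructose library 2 (1.96 against 1.92). Cavin4 was not past the threshold without fructose library 2. Neither gene was tested when at least 10 counts were asked of every library.

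**Figure D2:**
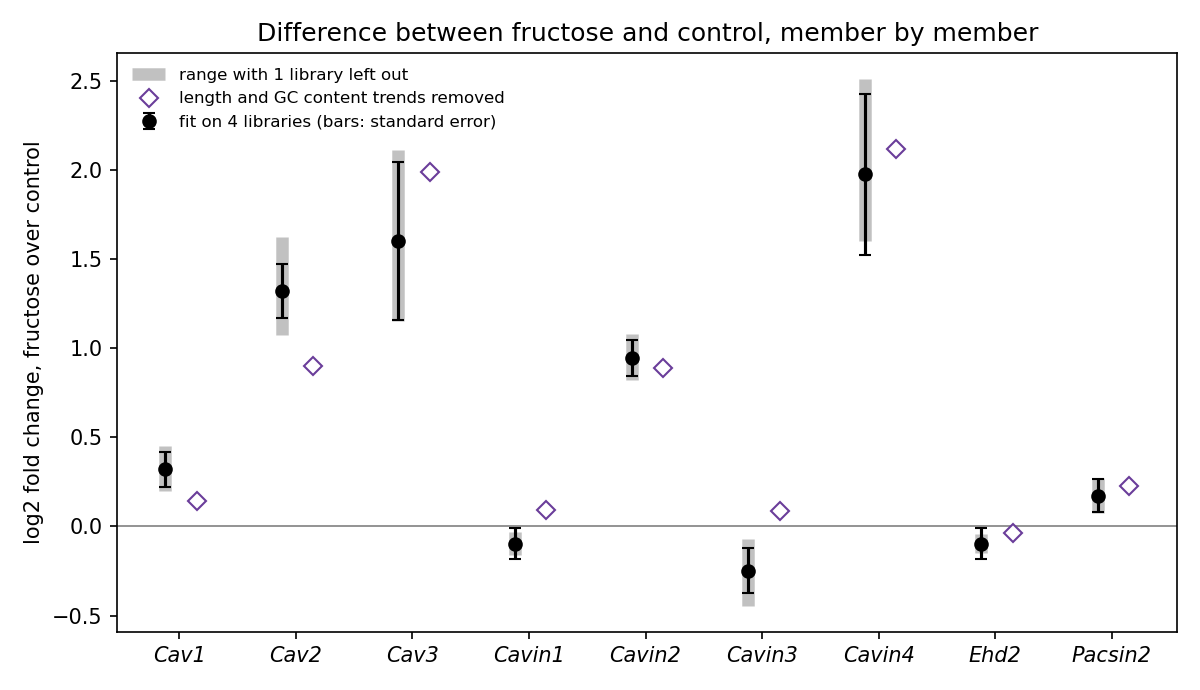
log2 fold change of each member, fructose over control: black points are the fit on 4 libraries with standard errors, grey bars the range with 1 library left out, and open diamonds the fit with the trends on length and GC content removed. Cav2, Cav3, Cavin2 and Cavin4 stay above 0 throughout, and the diamonds of Cavin1 and Cavin3 lie on the other side of 0 from their black points.

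Even in fructose the muscle isoforms were a trace of their families. Per kilobase, Cav3 made up 0.188% and 0.422% of the 3 caveolins in control and 0.867% and 0.520% in fructose. Cavin4 made up 0.102% and 0.0595% of the 4 cavins in control and 0.304% and 0.358% in fructose. Both shares were higher in each fructose library than in either control library, by 2.27-fold for Cav3 (0.305% ± 0.166 against 0.694% ± 0.246) and 4.09-fold for Cavin4 (0.0809% ± 0.0303 against 0.331% ± 0.0384). With 1 library left out, the ratio for Cav3 ran from 1.64 (without control library 1) to 3.68 (without control library 2), and that for Cavin4 from 3.24 to 5.57.

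Skeletal muscle fibre markers moved with the groups as well. Of 24 such genes, 23 were tested, and 23 of them (100%, against 15.5% of all tested genes) rose in fructose (edgeR, adjusted p under 0.05). Their median log2 fold change was 1.41. Their summed level was 375 and 497 CPM in control and 1113 and 873 CPM in fructose, led by Acta1, the actin of the fibre, at 114 ± 27.3 and 253 ± 73.4 CPM (log2 fold change 1.15, adjusted p = 0.0013, edgeR). Myh2, a fast myosin heavy chain, had 3 and 3 counts in control and 64 and 38 in fructose, and passed the filter on low counts through its fructose libraries. Myh3, the embryonic heavy chain, rose by 2.13 on the log2 scale (adjusted p = 0.00085, edgeR). With at least 10 counts asked of every library, 22 genes of the list were tested and 22 rose, and Myh2 was not among them. Per 1000 CPM of the 24 fibre markers, Cav3 stood at 1.27 and 1.79 CPM in control and 2.38 and 1.73 CPM in fructose. Cavin4 stood at 1.41 and 0.558 CPM in control and 1.39 and 1.92 CPM in fructose. For both isoforms the groups overlapped on this scale. In bulk tissue, more fibres and more RNA per fibre cannot be told apart, and the part of fibre content in the values of Cav3 and Cavin4 was not tested.

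Cardiomyocyte markers, those of the other striated muscle, were at few counts. Of 7 such genes, Nppa had 2, 0, 1 and 0 counts in control 1, control 2, fructose 1 and fructose 2, Myl7 had 1, 0, 0 and 1, Myh6 had 0, 0, 2 and 5, Ryr2 had 1, 7, 11 and 6, and Nppb was at 0 in every library. Tnnt2, which fetal skeletal muscle also uses, was the only tested gene and rose by 1.65 (adjusted p = 0.034, edgeR). It was not past the threshold with DESeq2 (1.66), or with the length trend (1.46) or both trends (1.51) removed. The call was also lost without control library 2 (1.27) or fructose library 1 (1.21). The list summed to 0.739 and 0.721 CPM in control and 2.30 and 1.43 CPM in fructose, a ratio of 2.55, and its part in the values of Cav3 and Cavin4 was not tested. Of 11 myoblast and satellite cell markers, 5 were tested and 1 (20%, against 15.5% of all tested genes) rose. This was Myog (8, 12, 41 and 69 counts, log2 fold change 2.09, adjusted p = 0.0049, edgeR). Neither Myog nor Tnnt2 was tested when at least 10 counts were asked of every library. The 11 markers summed to 57.9 and 57.7 CPM in control and 79.3 and 67.3 CPM in fructose. Myog was not past the threshold without fructose library 2, at 1.73. Des, which holds most of that sum, had a log2 fold change of 0.27 (adjusted p = 0.066, edgeR), and was past the threshold in several alternatives, among them the replicate block (0.27) and both trends removed (0.44).

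Endothelial cells and adipocytes both use Cav1, Cav2 and Cavin2, and their markers were summed for comparison. The 17 endothelial markers summed to 2303 and 2289 CPM in control and 2045 and 2148 CPM in fructose, a ratio of 0.913. Of them, 2 rose (11.8%, against 15.5% of all tested genes) and 3 fell (17.6%, against 10.7%) (edgeR, adjusted p under 0.05). Without control library 1 these counts were 4 and 5, and without fructose library 2 they were 1 and 1. Cldn5, a tight junction protein, fell by 0.51 on the log2 scale (adjusted p = 0.0087, edgeR), and Erg, an endothelial transcription factor, rose by 0.75 (adjusted p = 0.0038, edgeR). Cldn5 was not past the threshold with the length trend (-0.28), the GC content trend (-0.29) or both (-0.10) removed. With the GC content trend removed, Erg stood at 0.78, beside 0.68 for Cav2 and 0.71 for Cavin2. Cdh5, the cadherin of endothelial junctions, had 484 ± 19.0 and 466 ± 15.4 CPM (log2 fold change -0.055, adjusted p = 0.66, edgeR). Per 1000 CPM of endothelial markers, Cav2 stood at 9.92 and 6.78 CPM in control and 21.9 and 23.9 CPM in fructose, and Cavin2 at 22.2 and 18.6 CPM in control and 46.2 and 40.1 CPM in fructose. The groups did not overlap on this scale, at 2.74-fold and 2.11-fold. With the endothelial sum itself at a ratio of 0.913, these values largely repeat the folds of the genes, 2.50 for Cav2 and 1.93 for Cavin2. The part of cell composition was not tested. The ratios to endothelial markers were not corrected for GC content. With that trend removed, the median log2 fold change of the endothelial markers was -0.0073.

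The 17 adipocyte markers summed to 25629 and 25090 CPM in control and 23691 and 22693 CPM in fructose, a ratio of 0.915. Of these, 7 fell and 1 rose (edgeR, adjusted p under 0.05), but 3 fell with the length trend, the GC content trend or both removed, 2 without fructose library 1 and 0 without fructose library 2. In the fit on 4 libraries, the shares lower and higher were 41.2% and 5.88%, against 10.7% and 15.5% of all tested genes. The median log2 fold change of the adipocyte markers was -0.14, and that of the endothelial markers was -0.11. Fabp4, the most abundant, carries fatty acids in the cytosol and had a log2 fold change of -0.13 (adjusted p = 0.36, edgeR), which passed the threshold at -0.46 with the GC content trend removed and at -0.37 with both trends removed. Pnpla2, the main triglyceride lipase, fell by 0.34 (adjusted p = 0.017, edgeR), and Cebpa, a transcription factor of fat cells, fell by 0.38 (adjusted p = 0.0093, edgeR), whereas Lpl, the lipoprotein lipase, rose by 0.75 (adjusted p = 0.00054, edgeR). None of these 3 genes was past the threshold with both trends removed, at -0.11 for Pnpla2, -0.074 for Cebpa and 0.25 for Lpl. Pnpla2 and Cebpa also lost the call with either trend removed and without fructose library 2 (-0.35 and -0.37), and Pnpla2 without fructose library 1 (-0.32). Against the adipocyte sum, Cav2 and Cavin2 were 2.75-fold and 2.11-fold higher in fructose and Cav1 was 1.37-fold higher, each with both fructose libraries above both control libraries. With the sum itself at a ratio of 0.915, these ratios too largely repeat the folds of the genes. These ratios were not corrected for GC content. With that trend removed, the log2 fold change was 0.68 for Cav2, 0.71 for Cavin2 and -0.020 for Cav1, beside a median of -0.11 for the adipocyte markers. Cav1 had 28.3 and 24.2 CPM per 1000 CPM of adipocyte markers in control and 36.1 and 35.6 in fructose.

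**Figure D3:**
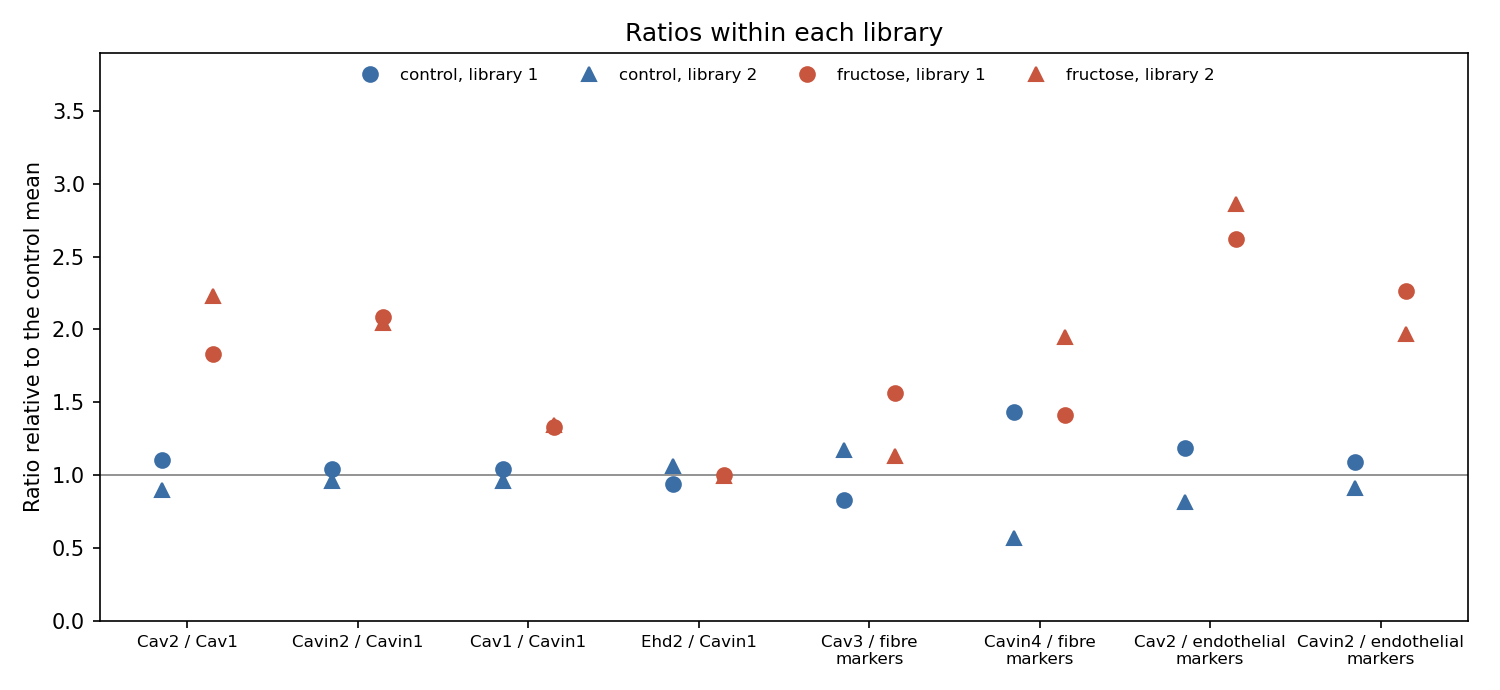
Ratios within each library, divided by the mean of the control libraries; symbols are as in the plot of levels, and gene-to-gene ratios are per kilobase. Cav2 and Cavin2 stand at about 2-fold or more in fructose against their partners and against endothelial markers, whereas Cav3 and Cavin4 overlap between the groups per fibre marker. None of the ratios was corrected for GC content.

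The remaining members differed less. Cavin3 (ENSMUSG00000037060, chr7:105480083-105482300, minus strand), a small cavin that binds Cav1, had 35.1 and 31.4 CPM in control and 31.7 and 24.4 CPM in fructose. The groups overlapped, and fructose library 2 was the lowest. The log2 fold change was -0.25 (SE 0.13), with -0.44 without fructose library 1 and -0.068 without fructose library 2, and Cavin3 passed the threshold for lower counts when control library 2 or fructose library 1 was left out. Once trends on length and GC content were taken out, the sign turned, to 0.085. Cavin3 shares exon sequence with Gm45667, a predicted transcript on the opposite strand that the count table does not list, and the strand setting of the count is not given in the sources used here.

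Pacsin2 (ENSMUSG00000016664, chr15:83375607-83464606, minus strand) had 45.0 and 51.5 CPM in control and 55.9 and 52.9 CPM in fructose. Its fructose libraries lay just above the control libraries. The log2 fold change was 0.17 (SE 0.094), between 0.076 and 0.27 over 15 alternative fits.

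Of 19 other genes that act with caveolae, 18 were tested. Of these, 5 rose (27.8%, against 15.5% of all tested genes) and 3 fell (16.7%, against 10.7%) (edgeR, adjusted p under 0.05). The median log2 fold change of the list was 0.024. Their summed level was 1623 and 1588 CPM in control and 1677 and 1701 CPM in fructose. Yes1, a kinase of the Src family, rose from 4.96 ± 0.897 to 10.6 ± 0.932 CPM (log2 fold change 1.09, adjusted p = 0.0019, edgeR). Insr, the insulin receptor, rose by 0.79 (adjusted p = 0.00034, edgeR), and only the main fit is given for it. Trpc1, a cation channel that binds Cav1, rose from 10 and 9 counts to 26 and 47 counts. Its log2 fold change was 1.57 (adjusted p = 0.023, edgeR), and it was not tested when at least 10 counts were asked of every library. Trpc1 was not past the threshold with DESeq2 (1.57), or with the GC content trend (1.38) or both trends (1.255) removed. It also lost the call without fructose library 2 (1.16). Cd36, the fatty acid translocase that depends on caveolae, rose from 355 ± 28.1 to 531 ± 33.1 CPM (log2 fold change 0.58, adjusted p = 0.0013, edgeR), but stood at -0.016 with the GC content trend removed.

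The paralogs of Ehd2 and Pacsin2 did not follow a single direction. Ehd4 rose by 0.32 (24.3 ± 0.755 to 30.3 ± 0.149 CPM, adjusted p = 0.037, edgeR) and Ehd1, which works in endocytic recycling, fell by 0.28 (272 ± 2.98 to 224 ± 9.15 CPM, adjusted p = 0.025, edgeR). Ehd3 had 38 and 35 counts in control and 38 and 57 in fructose, a log2 fold change of 0.026 (adjusted p = 0.96, edgeR). Pacsin3, the paralog of muscle and fat, had a log2 fold change of -0.35 (SE 0.15, adjusted p = 0.10, edgeR). Pacsin1, the neuronal paralog, had 1, 0, 5 and 2 counts and was not tested. The other genes that fell were Flot2, a flotillin of separate membrane domains, by 0.33 (adjusted p = 0.014, edgeR), and Plvap, the diaphragm protein of endothelial caveolae, by 0.28 (adjusted p = 0.028, edgeR). None of these 3 declines was past the threshold with the length trend or the GC content trend removed, or without fructose library 1 or fructose library 2. The values of Flot2 were then -0.22, -0.18, -0.31 and -0.35, and those of Ehd1 were -0.24, -0.088, -0.32 and -0.23. Ehd4 was not past the threshold with DESeq2, without control library 2 or without either fructose library, with values of 0.29 to 0.33.

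Of 25 genes of the muscle fibre membrane, its T-tubules and its repair, among which Cav3 and Cavin4 work, 23 were tested. Of these, 11 rose (47.8%, against 15.5% of all tested genes) and 1 fell (4.35%, against 10.7%) (edgeR, adjusted p under 0.05). Their median log2 fold change was 0.83, between that of the caveola partners and that of the fibre markers. It was 0.43, with 7 genes higher and 1 lower, over the 17 genes with at least 10 counts in every library. Once trends on length and GC content were taken out, it was 0.49, with 6 genes higher. Trim72, a membrane repair protein that binds Cav3, rose from 9 and 18 counts to 74 and 58 counts (log2 fold change 1.93, adjusted p = 0.0051, edgeR). Bves, a Popeye protein that binds Cav3, rose from 7 and 6 counts to 22 and 37 counts. Its log2 fold change was 1.81 (adjusted p = 0.019, edgeR), and it passed the filter on low counts through its fructose libraries. Neither Trim72 nor Bves was tested when at least 10 counts were asked of every library. Bves was not past the threshold with DESeq2 (1.81) or without fructose library 2 (1.46). Dmd, which encodes dystrophin, rose by 1.45 (adjusted p = 0.0043, edgeR), and Dysf, the repair protein dysferlin, rose by 0.42 (adjusted p = 0.011, edgeR). Utrn, the dystrophin relative utrophin, rose by 0.80 (adjusted p = 0.00084, edgeR), and Sntb1, a syntrophin, rose by 0.92 (adjusted p = 0.00955, edgeR). For Dmd, Dysf, Utrn and Sntb1 only the main fit is given. The list held 5 higher genes with the length trend removed and 6 with DESeq2, so these calls may be among those lost. Dag1, the dystroglycan gene, holds most of the summed level and had 785 ± 92.0 and 727 ± 22.7 CPM (log2 fold change -0.11, adjusted p = 0.42, edgeR). Without control library 1 it stood at -0.23 (adjusted p = 0.046, edgeR), and without control library 2 at 0.014. Sspn had a log2 fold change of 0.26 (adjusted p = 0.065, edgeR), and was past the threshold with scaling to library size alone (0.32). The summed level of the list, 948 and 1083 CPM in control and 1030 and 1000 CPM in fructose, therefore gave no sign of the difference in its rarer genes.

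**Figure D4:**
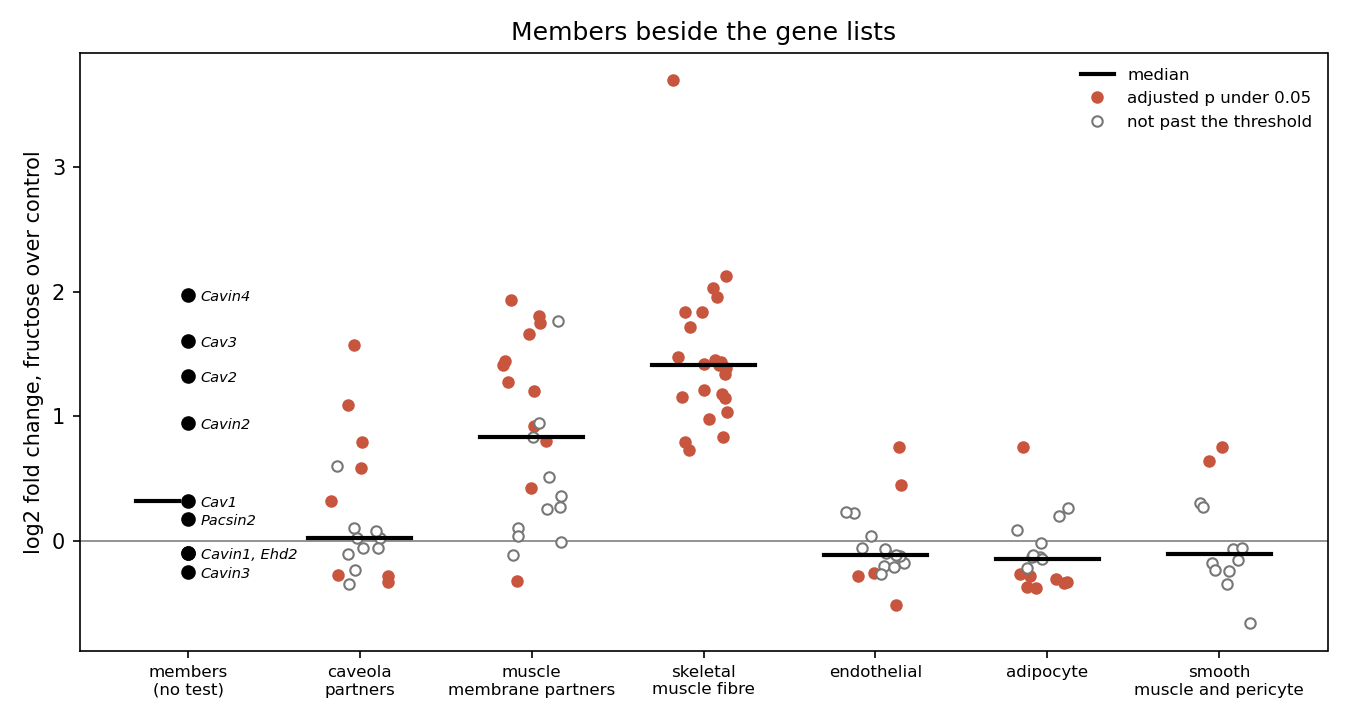
log2 fold change, fructose over control, of the 9 members (black, no test) and of the tested genes of 6 lists; filled red points have an adjusted p under 0.05 in edgeR's quasi-likelihood test, open points do not, and bars are medians. Cav3 and Cavin4 lie in the range of the fibre markers (median 1.41). Cav1, Cavin1, Ehd2, Cavin3 and Pacsin2 lie in that of the endothelial and adipocyte markers. Cav2 (1.32) and Cavin2 (0.95) lie above every endothelial and adipocyte marker in this fit. Genes of other lists lie above Cavin2, among them the caveola partners Yes1 (1.09) and Trpc1 (1.57). So do Ppargc1a of brown adipocytes (1.16) and Postn of fibroblasts (1.01), whose lists are not drawn. Of these 4 genes, only Trpc1 lies above Cav2. With the GC content trend removed, Erg (0.78) lay above Cavin2 (0.71) and Cav2 (0.68).

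Several properties of the libraries and of the tissue moved with the groups. Across tested genes, the log2 fold change was related to exon length (Spearman's rho 0.46) and to GC content (rho -0.50). This is a description over genes, which are not independent replicates. Cav1, Cav2 and Cavin2 are poor in GC, at 42.6%, 37.5% and 44.4%, and Cavin1, Cavin3 and Ehd2 are rich in it, at 57.3%, 56.4% and 54.5%. Cav3 is short (1157 bases) and rich in GC (56.6%), and its log2 fold change was 1.99 with both trends removed, beside 0.90 for Cav2, 0.89 for Cavin2, 2.12 for Cavin4 and 0.14 for Cav1. Mitochondrially encoded genes held 5.89% and 6.49% of counts in control and 10.8% and 11.2% in fructose, and erythroid markers summed to 19204 and 15294 CPM in control and 11766 and 12141 CPM in fructose. Smooth muscle and pericyte markers, a further site of caveolae, summed to 611 and 639 CPM in control and 620 and 599 CPM in fructose. Fibroblast markers summed to 5145 and 4410 CPM in control and 5028 and 5105 CPM in fructose, macrophage markers to 259 and 195 CPM in control and 197 and 204 CPM in fructose, with C1qa and C1qb lower (log2 fold changes -0.36 and -0.40, adjusted p = 0.035 and 0.043, edgeR) and Mrc1, a further macrophage marker, higher (0.71, adjusted p = 0.026, edgeR). Single genes of flat lists rose too, namely Rgs5 (0.75, adjusted p = 0.0011, edgeR) and Abcc9 (0.64, adjusted p = 0.00092, edgeR) of pericytes and Postn (1.01, adjusted p = 0.00055, edgeR) of fibroblasts. C1qa, C1qb and Mrc1 lost their calls in several alternatives. Their values were -0.38, -0.41 and 0.69 with DESeq2, and 0.082, 0.019 and 0.39 with both trends removed. Postn and Rgs5 lost theirs with the GC content trend removed (0.31 and 0.31). Of 10 brown adipocyte markers, 4 rose (40%, against 15.5% of all tested genes) and 2 fell (20%, against 10.7%) (edgeR, adjusted p under 0.05). Among them, Ppargc1a rose by 1.16 (adjusted p = 0.00081, edgeR) and Cox8b fell by 0.44 (adjusted p = 0.0099, edgeR). Cox8b was not past the threshold with the length trend (-0.0070), the GC content trend (-0.29) or both (0.12) removed. It also lost the call without fructose library 2 (-0.36). The part of these properties and markers in the family's values was not tested.

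The genes most like Cav1 and Cav3 across the 4 libraries were found by the distance between log2 CPM profiles, each centred on its own mean, among 11947 genes with a mean of at least 1 CPM. Nearest to Cav1 were Mical2 (distance 0.025), Ctbs (0.030) and Gab2 (0.033), and 576 genes lay within a distance of 0.2, so the profile of Cav1 was a common one. Nearest to Cav3 were Tnnc1, a troponin of slow and cardiac muscle (distance 0.18), Ggnbp1 (0.19) and Hspb7 (0.20), and only these 3 genes lay within 0.2. Cav3 rests on 9, 16, 60 and 37 counts, so counting error enters its distances. Its number of neighbours is therefore not to be set against that of Cav1.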

How the data were processed

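RNA-seq was performed on fetal BAT, with 2 control and 2 fructose libraries grouped by the treatment label. The authors filtered reads with fastp and mapped them to mm10 with Bowtie2 (2.0.0.5) and TopHat2 (2.0.0). They assembled the mapped reads with StringTie (2.2.0), merged the assemblies and deposited raw counts per gene, without normalization. The counting tool, its strand setting and its treatment of reads that match several genes are not given in the sources used here. The 4 deposited single-library tables were identical to the joint table. Gene symbols, coordinates, exon lengths and GC content came from the GENCODE annotation of GRCm38, in which 43 of 22298 genes had no match.

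Counts were tested with edgeR (4.0.16, R 4.3.3), with TMM normalization, filterByExpr, the two-sided quasi-likelihood test without a covariate and Benjamini-Hochberg adjustment over the 12888 tested genes. The script was tested on simulated counts. CPM are TMM-scaled, and levels per kilobase and length trends use the union of exons. GC content is that of the longest annotated transcript. DESeq2 (1.42.0), other scalings and filters, a replicate block, removal of length and GC content trends (lowess offsets, span 0.3) and each library left out were alternatives. A library left out leaves 1 library in its group, which was assumed to vary like the other group. The ratios were added after the values were seen.

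The members and gene lists were chosen with earlier results of these data known. The genes named are the 9 members, every EHD and PACSIN paralog, from each list the 3 highest genes per kilobase and the 2 called genes with the largest change, and the 3 genes nearest to Cav1 and to Cav3. Not all of these are described, and a listed gene is not reported here. The other genes named were chosen after their values were seen. All 178 listed genes were found.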

Additional observations from a re-analysis of the deposited data

How the results depend on the processing

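Cav2, Cavin2 and Pacsin2 kept their direction in 15 of 15 alternative fits, and Cav3 and Cavin4 in the 14 fits that gave them a value. The log2 fold change of Cav1 turned to -0.020, and that of Cd36 to -0.016, with the GC content trend removed. With both trends removed, without and with the replicate block, Cox8b turned to 0.12 and 0.12, C1qb to 0.019 and 0.029 and C1qa to 0.082 and 0.083. The count of 5 members past the threshold was 4 with DESeq2, after removal of the GC content trend or of both trends, alone or beside the replicate block, 3 with at least 10 counts in every library, and 3 to 5 with 1 library left out. In these last fits, 5 were higher without control library 1, 4 higher and Cavin3 lower without control library 2, 3 higher and Cavin3 lower without fructose library 1, and 3 higher without fructose library 2. The replicate block alone left it at 5, with 2117 genes higher and 1441 lower among all genes. The numbers share only a name (correlation of deviations -0.026).

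Over all genes, 2001 were higher and 1379 lower. The higher count was 1280 with DESeq2, 1290 with the length trend, 1111 with the GC content trend and 717 with both removed, 950 with both and the block, and 1207 (without fructose library 2) to 2225 with 1 library left out. The lower count was 859 under library-size scaling, 830 after removal of both trends and 485 to 1700 with 1 library left out (825 without fructose library 1, 485 without fructose library 2). Scaling by library size moved the median log2 fold change to 0.063.

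Of the caveola partners, 3 were higher with DESeq2, after removal of the GC content trend or of both trends, and with both and the block, and 3 (without fructose library 2) to 5 with 1 library left out. The lower count was 1 with library size only, 0 in the 4 fits with a trend removed, and 0 (without either fructose library) to 3 with 1 library left out. Of the muscle membrane partners, 6 were higher with DESeq2, 7 with at least 10 counts, 5 with the length trend and 6 with both trends removed, 7 with both and the block, and 6 to 11 with 1 library left out (6 without fructose library 1, 7 without fructose library 2). The lower count was 0 with DESeq2, library size only and the 4 fits with a trend removed, and 0 to 2 with 1 library left out. The cause of these changes was not tested. Depth limits Cav3 and Cavin4, which rest on 5 to 60 counts a library.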
